A study of Mus musculus with 8 samples.

Results

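Milk carries 2 products that this set of 9 genes serves: the soluble proteins of whey and the sugar lactose. The genes were taken by symbol, 3 for whey proteins (Wap, Lalba and Glycam1) and 6 for lactose synthesis (B4galt1, Slc2a1, Ugp2, Hk1, Hk2 and Slc35a2), and all 9 were found among the 27998 genes of the deposited matrices. The rule used symbols and no threshold on a measured value. They were followed through single mammary epithelial cells of C57BL/6N mice, which carry no transgene, deletion or treatment in the labels. Cells positive for the epithelial surface protein EpCAM were sorted after cells with blood, endothelial and red cell markers had been gated out, and each of 8 mice gave 1 droplet library. There were 2 mice at each of 4 stages: nulliparous at 8 weeks (NP), on day 14.5 of gestation (G), in lactation on its day 6 (L), and post-involution (PI), taken 11 days after natural weaning. From vaginal smears the study placed both NP mice and PI mouse 2 in estrus and PI mouse 1 in diestrus. The part of the cycle in the results was not tested.

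Whey acidic protein, the product of Wap, is a major whey protein of mouse milk, and Glycam1 encodes a mucin-like milk glycoprotein. Lalba encodes α-lactalbumin, which binds the Golgi galactosyltransferase B4GALT1 and turns it into lactose synthase, so the same enzyme subunit serves glycoprotein synthesis in many cells and lactose synthesis in secretory alveolar cells. The substrates come from glucose: Slc2a1 encodes the glucose transporter GLUT1, Hk1 and Hk2 encode hexokinases that phosphorylate glucose, Ugp2 encodes the enzyme that makes UDP-glucose, and Slc35a2 encodes the carrier that brings UDP-galactose into the Golgi.

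In the GRCm38 annotation Wap lay on the minus strand at chr11:6635482-6638637, Lalba on the minus strand at chr15:98480400-98482721 and Glycam1 on the minus strand at chr15:103562759-103565081. B4galt1 lay at chr4:40804602-40854005 (minus), Slc2a1 at chr4:119108711-119137983 (plus) and Ugp2 at chr11:21321138-21371201 (minus). Hk1 lay at chr10:62268855-62379908 (minus), Hk2 at chr6:82725025-82774454 (minus) and Slc35a2 at chrX:7884028-7894492 (plus).

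The promoters of the 5 genes on which the results turn are shown because the whey genes and the lactose genes among these 5 differ in letters there. Each is the RefSeq window of 300 bases, 250 before and 50 after the annotated start, on build GRCm38.p6 and in the direction of transcription, with every CG pair in capitals. The windows are, in order, chr11:6638600-6638899 (minus), chr15:98482634-98482933 (minus), chr15:103565032-103565331 (minus), chr4:40853935-40854234 (minus) and chr4:119108495-119108794 (plus).
Wap: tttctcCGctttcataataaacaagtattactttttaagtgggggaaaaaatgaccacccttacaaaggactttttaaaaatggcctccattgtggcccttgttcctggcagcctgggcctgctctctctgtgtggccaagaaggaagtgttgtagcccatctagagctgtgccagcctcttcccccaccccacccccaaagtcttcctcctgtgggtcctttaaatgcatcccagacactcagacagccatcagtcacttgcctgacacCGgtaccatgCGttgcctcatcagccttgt
Lalba: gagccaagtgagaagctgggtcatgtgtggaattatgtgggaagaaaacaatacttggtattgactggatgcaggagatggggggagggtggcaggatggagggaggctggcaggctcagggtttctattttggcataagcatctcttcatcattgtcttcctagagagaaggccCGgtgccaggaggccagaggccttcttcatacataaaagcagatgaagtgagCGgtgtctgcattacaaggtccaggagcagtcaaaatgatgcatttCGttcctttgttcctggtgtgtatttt
Glycam1: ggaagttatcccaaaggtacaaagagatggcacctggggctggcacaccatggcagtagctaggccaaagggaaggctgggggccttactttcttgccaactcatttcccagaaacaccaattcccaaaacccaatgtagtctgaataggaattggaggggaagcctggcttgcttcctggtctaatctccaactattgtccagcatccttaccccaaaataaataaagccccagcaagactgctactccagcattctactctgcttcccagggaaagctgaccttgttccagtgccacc
B4galt1: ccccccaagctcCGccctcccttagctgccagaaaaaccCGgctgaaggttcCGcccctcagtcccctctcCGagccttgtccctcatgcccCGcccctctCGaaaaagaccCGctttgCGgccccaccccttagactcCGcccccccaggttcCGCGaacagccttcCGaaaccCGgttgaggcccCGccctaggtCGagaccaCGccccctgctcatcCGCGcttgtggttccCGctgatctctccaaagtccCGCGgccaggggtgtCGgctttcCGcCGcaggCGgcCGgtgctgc
Slc2a1: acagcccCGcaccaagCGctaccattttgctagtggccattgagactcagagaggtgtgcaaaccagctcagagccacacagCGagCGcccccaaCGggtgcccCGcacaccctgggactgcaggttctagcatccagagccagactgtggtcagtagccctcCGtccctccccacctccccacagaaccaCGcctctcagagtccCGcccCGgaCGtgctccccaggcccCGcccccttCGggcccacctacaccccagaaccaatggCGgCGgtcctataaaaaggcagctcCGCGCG

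The 3 whey promoters held few CG pairs, 3 in Wap, 3 in Lalba and 0 in Glycam1, against a median of 7 over the 32851 promoters of the same length. Of the lactose genes, B4galt1 held 26 and Slc2a1 held 18. Hk1 held 1 at its first listed start, fewer than Wap or Lalba, and 20 at its second. Ugp2 held 23 and 32 at its listed starts, Hk2 held 25 and Slc35a2 held 21. Of all promoters, 31.4% held as few CG pairs as Wap or Lalba or fewer, and 84.5% held as few as B4galt1 or fewer. The letters TTCNNNGAA, the palindrome that STAT5 and related factors recognise, were searched on both strands and occurred in 8.3% of all promoters. Among the 9 genes they occurred in Glycam1 (TTCCCAGAA, beginning 145 bases before the start) and in B4galt1 (TTCCGCGAA, 99 bases before the start). Neither Wap, Lalba nor Slc2a1 had them in this window, and a match or its absence is a description of letters only.

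The libraries held 1449 to 5736 cells that passed the authors' quality control and 13785920 to 35711533 unique molecular identifiers (UMIs, each a counted transcript), in 25009 cells in all. Among these no barcode was shared between libraries. Counts were summed per mouse and per cluster of the authors' annotation (C1 to C19) wherever 20 or more cells were present, and are given as CPM, the UMIs of a gene per 1000000 UMIs of that sum. The cluster names are those of the study: luminal progenitors in NP (C6, Lp-NP) and PI (C7, Lp-PI), alveolar progenitors in G (C10, Avp-G) and L (C11, Avp-L), differentiated alveolar cells in G (C8, Avd-G) and L (C9, Avd-L), hormone-sensing cells (C1 to C5) and basal cells (C12 to C14). C6 also held 22 cells of PI mouse 1, a sum that enters ranges over sums but not the order of cluster means, the plots or the tests of stages. The study named C8 to C11 in part by Wap, Lalba and Glycam1, so the presence of these genes there is not a result, and clusters of the same mice were described without a test. Transcripts released from broken cells enter every droplet, so each level is set against the basal cells of the same library (C12 in NP and PI, C13 in G, C14 in L), which do not secrete milk.

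The labels of the clusters were checked against markers. The 3 basal markers Krt5, Krt14 and Acta2 summed to 111 and 107 CPM in Avd-G, 126 and 196.5 CPM in Avp-G, 2012 and 879 CPM in Avd-L, and 4647 and 3323 CPM in Avp-L. In basal cells they summed to 17910 and 14110 CPM in G and to 32450 and 29140 CPM in L. The lactation alveolar clusters thus held more basal transcript than those of gestation in both mice, and the part of this in the results below was not tested. A set of 3 luminal markers summed to 5793 and 7050 CPM in Avd-G and 6254 and 7657 CPM in Avp-G. In lactation it summed to 1904 and 3140 CPM in Avd-L, 6304 and 10300 CPM in Avp-L, and 1654 and 1201 CPM in basal cells. Avd-L of mouse 1 therefore held less luminal than basal marker transcript. The 3 immune markers Ptprc, Cd74 and Cd72 summed to 51.5 and 61.5 CPM in Avd-G, 217 and 52.6 CPM in Avd-L, 28.3 and 32.4 CPM in Avp-G, and 294 and 230 CPM in Avp-L, against 29800 to 48120 CPM in the immune cluster C17. The basal cells of PI were few, 27 and 53 cells. In mouse 1 they held 852 CPM of Cd74 with Ptprc and Cd72 at 0, and in mouse 2 the 3 markers summed to 10.6 CPM.

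Wap was found at very high level in a small number of cells. Avd-L held 91750 CPM in L mouse 1 and 102000 CPM in mouse 2, from 42 and 47 cells, or 1251 and 1610 UMIs per cell. Basal cells of the same libraries held 323 and 392 CPM, 1.47 and 2.10 UMIs per cell. The ratio of CPM was 284 and 260, and no other sum of C1 to C15 came near these values: the next highest cluster mean was 210-fold lower. Within Avd-L the spread between cells was wide. The median cell held 39290 CPM of Wap in mouse 1 and 72920 CPM in mouse 2, the cells at the 10th and 90th percentiles of mouse 1 held 1866 and 215300 CPM, and the 10% of cells richest in Wap held 50.4% and 42.1% of its UMIs.

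In alveolar progenitors of lactation, where Wap stood against the basal level depended on the scale and on single cells. Avp-L held 241 CPM in mouse 1 and 681 CPM in mouse 2, which is 0.748 and 1.74 times the basal level, and per cell 1.25 and 3.10 times. Against non-epithelial cells of the same libraries the CPM was 1.35 and 3.91 times as high. In mouse 2 a single cell held 58.7% of the UMIs, and without the cell richest in Wap the levels were 218 and 288 CPM, below the basal cells of the same library in both mice. Per cell and without that cell, 1.65 and 2.72 UMIs stood against 1.47 and 2.10 in basal cells, above them in both mice. The share of cells with a Wap UMI was 64.8% and 77.5% in Avp-L and 66.6% and 74.9% in basal cells, at median depths of 6691 and 8065 UMIs against 3701 and 4148. With every cell thinned to 1000 UMIs these shares were 13.4% and 24.7% in Avp-L and 27.0% and 28.8% in basal cells.

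In gestation Wap stood above the basal level in differentiated alveolar cells. Avd-G held 410 CPM in mouse 1 and 87.7 CPM in mouse 2, 90.2 and 76.6 times the basal level of 4.55 and 1.14 CPM. A Wap UMI was seen in 50.4% and 25.1% of Avd-G cells and in 3.24% and 0.842% of basal cells, and after thinning in 17.1% and 5.39% against 0.191% and 0.168%. Median depths were 10900.5 and 8676.5 UMIs in Avd-G and 6201 and 6060 in basal cells. The richest 10% of Avd-G cells held 73.8% and 82.4% of the Wap UMIs. Avp-G held 6 UMIs in mouse 1 and 0 in mouse 2, where 0 of 126 cells allows a share of cells with a UMI of up to 2.38%, and Wap was not distinguishable there from the basal level.

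After involution Wap was low in both progenitor types. Lp-PI held 7.85 and 12.9 CPM and the hormone-sensing progenitors C1 of PI held 3.18 and 5.57 CPM, while the much larger cluster of differentiated hormone-sensing cells of the same mice (C3) held 0.30 and 0 CPM. Lp-NP held 1 UMI in mouse 1 and 0 in mouse 2. The basal cells of PI held no Wap UMI but were so few that Lp-PI lay at least 0.292-fold and 1.22-fold, and C1 at least 0.118-fold and 0.527-fold, over the floor of 3 UMIs, so these levels could not be placed above the basal level. Basal cells of NP held 0.940 and 4.12 CPM, at or above Lp-NP.

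**Figure D1:**
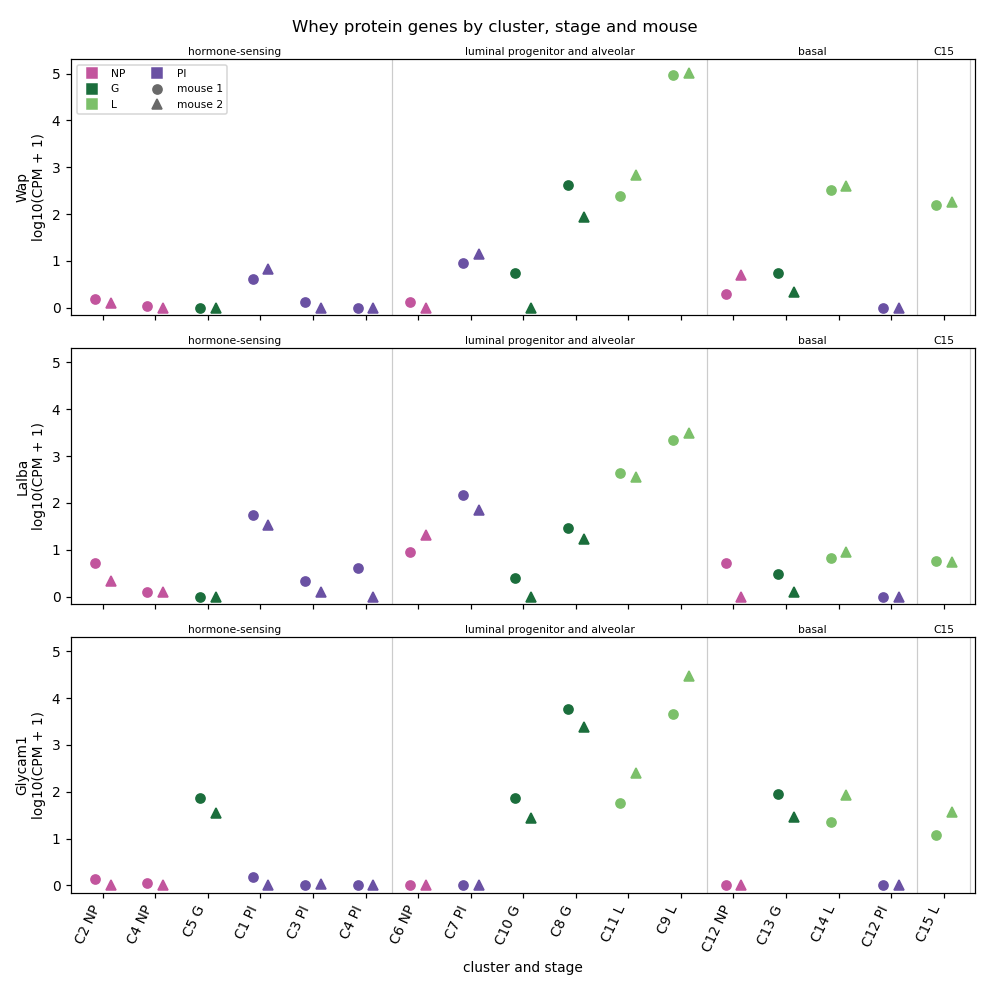
Levels of Wap, Lalba and Glycam1 as log10(CPM + 1) for each cluster and stage with 20 or more cells of C1 to C15, where each point is the summed UMIs of 1 mouse, circles mouse 1 and triangles mouse 2, coloured by stage. Avd-L (C9 L) holds the highest Wap level, 91750 and 102000 CPM, Lalba is also seen in the PI clusters C7 and C1, and Glycam1 is at or near 0 in every NP and PI sum.

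Lalba stood well above the basal level in both alveolar clusters of lactation. It was highest in Avd-L, with 2161 CPM in L mouse 1 and 3154 CPM in mouse 2, or 29.5 and 49.8 UMIs per cell, 384 and 388 times the basal level of 5.63 and 8.12 CPM. A Lalba UMI was seen in 92.9% and 100% of these cells, and the richest 10% held 30.9% and 30.4% of the UMIs, a more even spread than that of Wap.

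In Avp-L Lalba stood at 438.5 CPM in mouse 1 and 348 CPM in mouse 2, 77.9 and 42.8 times the basal level. The richest cell held 10.5% and 19.9% of the UMIs, and without it 395 and 282.5 CPM were left, so the level did not rest on 1 cell. A Lalba UMI was seen in 45.1% and 29.2% of Avp-L cells against 2.39% and 3.74% of basal cells, and after thinning in 21.8% and 13.5% against 0.582% and 0.741%. Wap and Lalba differed in this cluster. Both mice held Lalba far above the basal level, and neither held Wap above it in CPM once the richest cell was left out. The second point holds for basal cells as the reference. Against non-epithelial cells, with every cell kept, Lalba stood at 73.7 and 68.3 times and Wap at 1.35 and 3.91 times.

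The order of the stages was not the same for Lalba as for Wap. Avd-G, rich in Glycam1 and caseins, held only 28.8 and 16.2 CPM of Lalba. This was still 14.25 and 70.7 times the basal level of 2.02 and 0.229 CPM, which rested on 8 and 1 UMIs. A Lalba UMI was seen in 17.6% and 10.1% of Avd-G cells. Lp-PI held more, 149.9 CPM in PI mouse 1 and 69.7 CPM in mouse 2, and C1 of PI held 54.0 and 32.4 CPM. A Lalba UMI was seen in 30.3% and 22.6% of Lp-PI cells (7.65% and 6.27% after thinning) but in 0.728% and 0.161% of the differentiated hormone-sensing cells C3 of the same libraries (0.485% and 0% after thinning), at median depths of 6483.5 and 5579 UMIs in Lp-PI and 7179 and 5638 in C3. The basal cells of PI held 0 Lalba UMIs in 27 and in 53 cells, which allows shares of cells with a UMI of up to 11.1% and 5.66% and puts Lp-PI at least 5.57-fold and 6.59-fold above a floor of 3 UMIs per library. In Lp-PI the 10% of cells richest in Lalba held 74.9% and 73.2% of its UMIs.

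Before pregnancy Lalba was low but present in luminal progenitors. Lp-NP held 7.85 CPM in NP mouse 1 and 19.9 CPM in mouse 2, against 4.23 and 0 CPM in basal cells of the same mice. In mouse 2 a single cell held 60.4% of these UMIs, and without the richest cell the levels were 5.44 and 7.91 CPM.

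Glycam1 marked gestation and lactation and was all but missing outside them. All 8 sums of C1 to C15 in G and all 8 in L held Glycam1 UMIs. In NP 6 of 8 sums held none and the 4091 cells together held 4 UMIs, and in PI 9 of 11 sums held none and the 5546 cells together held 2. Lp-PI, which held Lalba and Wap, held 0 Glycam1 UMIs in 824 and in 1101 cells, which allows shares of cells with a UMI, not of cells expressing the gene, of up to 0.364% and 0.272%.

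Within G and L the Glycam1 level of differentiated alveolar cells overlapped between stages. Avd-G held 5731 CPM in mouse 1 and 2431 CPM in mouse 2, and Avd-L held 4559 and 28880 CPM. L mouse 1 lay between the G mice and L mouse 2 above both. The median Avd-L cell held 237 CPM in mouse 1 and 20020 CPM in mouse 2, and the richest 10% of cells held 70.7% and 44.2% of the UMIs. A Glycam1 UMI was seen in 88.7% and 68.0% of Avd-G cells against 45.9% and 17.3% of basal cells, and after thinning in 65.5% and 43.6% against 9.91% and 3.20%.

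In the progenitors of both stages Glycam1 stood far less above the basal level than in differentiated cells. Avp-G held 71.2 and 26.8 CPM, 0.784 and 0.938 times the basal level of 90.7 and 28.6 CPM, and on the scale of UMIs per cell 1.53 and 1.62 times. Avp-L held 55.5 and 246 CPM, 2.58 and 2.98 times the basal level and 4.32 and 5.32 times per cell, but the richest cell held 68.3% and 38.3% of the UMIs, and without it mouse 1 held 17.8 CPM against 21.5 CPM in basal cells and mouse 2 held 154 CPM against 82.5 CPM.

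**Figure D2:**
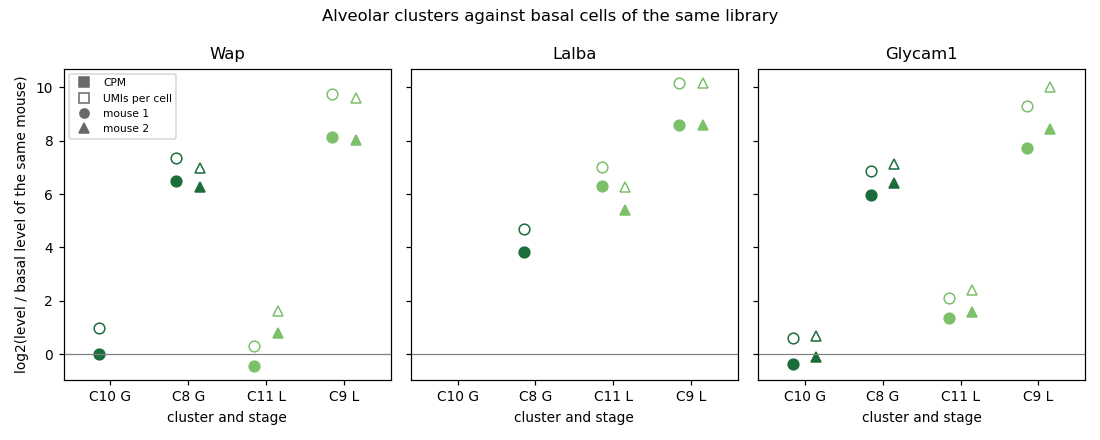
Level of Wap, Lalba and Glycam1 in the 4 alveolar clusters over the level in basal cells of the same library, as log2 of the ratio of CPM (filled) or of UMIs per cell (open), 1 point per mouse, leaving out points whose basal level rests on 3 or fewer UMIs. In Avp-L (C11 L) Lalba lies 77.9 and 42.8-fold over the basal level while Wap lies at 0.748 and 1.74 times it by CPM and 1.25 and 3.10 times per cell.

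Counts of the β-casein gene Csn2 in the same cells give a ratio that a common source of free RNA would keep constant within a library. Per 1000 Csn2 UMIs, Avd-L held 947 and 1272 Wap UMIs, and basal cells of the same libraries held 970 and 1220. Avp-L held 9.39 and 33.4, far below both. The contrast was much smaller for Lalba, with 17.1 and 17.1 in Avp-L, 22.3 and 39.3 in Avd-L, and 16.9 and 25.3 in basal cells. Avp-L lay below Avd-L in both mice and below basal cells in mouse 2.

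Glycam1 followed Wap in this respect. Per 1000 Csn2 UMIs, Avd-L held 47.0 and 360 Glycam1 UMIs, basal cells of L held 64.6 and 257, and Avp-L held 2.16 and 12. In G the ratios were 184 and 120 in Avd-G, 143 and 80.9 in basal cells, and 59.9 and 44.4 in Avp-G.

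The ratio of Lalba to Csn2 set Avd-G apart from the clusters of L and PI. Avd-G held 0.927 and 0.797 Lalba UMIs per 1000 Csn2 UMIs, the lowest of the clusters in which both genes were well counted. Lp-PI held 115.6 and 41.4, and C1 of PI held 83.3 and 42.5. All 4 PI values lay above those of Avd-L, but those of PI mouse 2 only just. Their 95% counting intervals, 37.95 to 45.05 in Lp-PI and 36.1 to 49.7 in C1, overlapped that of Avd-L in L mouse 2, 37.7 to 41.0. Wap per 1000 Csn2 UMIs in Lp-PI was 6.05 and 7.68, below that of lactation and within the range of 4.32 to 13.2 seen in Avd-G.

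**Figure D3:**
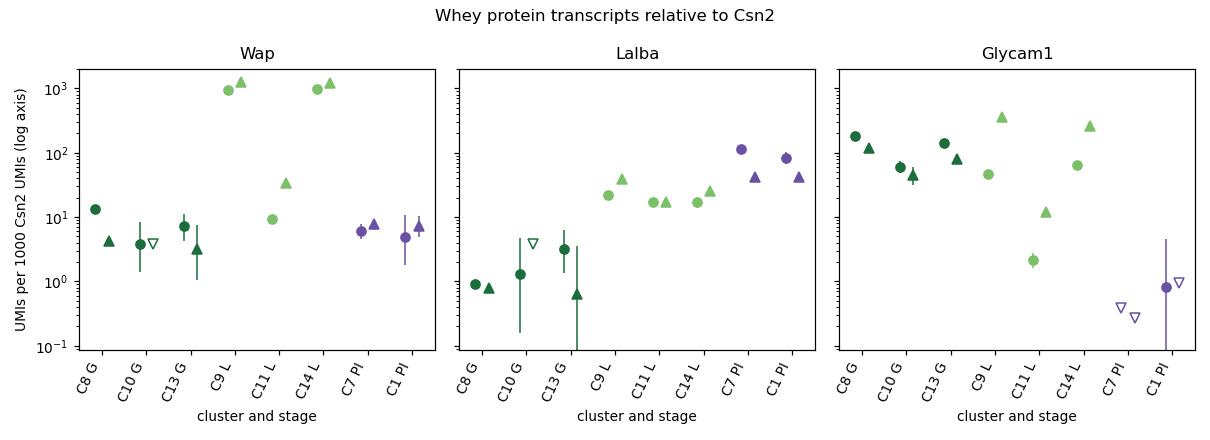
UMIs of Wap, Lalba and Glycam1 per 1000 Csn2 UMIs, on a log axis, in alveolar, basal and PI progenitor clusters, 1 point per mouse (circles mouse 1, triangles mouse 2, dark green G, light green L, violet PI) with 95% counting intervals and open triangles for the upper limit where no UMI was counted. Avp-L (C11 L) lies far below Avd-L (C9 L) and basal cells (C14 L) for Wap and Glycam1. For Lalba it lies closer, below Avd-L in both mice and below basal cells in mouse 2. PI clusters hold the highest ratios of Lalba.

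Across single cells of Avd-G, Spearman's rho was 0.654 and 0.479 between Wap and Csn2, 0.772 and 0.693 between Glycam1 and Csn2, and 0.302 and 0.231 between Lalba and Csn2, over 1926 and 1818 cells. Between B4galt1 and its partner Lalba it was 0.143 and 0.077. In Lp-PI rho between Lalba and Csn2 was 0.202 and 0.196. These cells share a library and differ in depth, and the values are descriptive.

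B4galt1, the catalytic subunit of lactose synthase, was expressed in every cluster and was highest where Lalba was highest. Avd-L held 245 CPM in L mouse 1 and 195 CPM in mouse 2, a mean 2.38 times that of the next cluster, and both mice lay above every other sum of C1 to C15. Then followed a group whose neighbours in the order of means overlapped between mice: hormone-sensing cells of NP (C4) with 85.4 and 98.5 CPM, Lp-PI with 87.6 and 87.9 CPM, C1 of PI with 107 and 66.1 CPM and, lower, Avd-G with 81.1 and 61.6 CPM. Avp-L and Avp-G held 52.7 and 44.7 CPM and 53.6 and 34.3 CPM, and Lp-NP held 33.8 and 42.3 CPM. Basal cells of G and L had lower means than these, with 25.3 and 26.1 CPM in G and 19.7 and 25.5 CPM in L. Cells with a B4galt1 UMI made up 78.6% and 85.1% of Avd-L and 8.43% and 12.3% of basal cells of L, and 16.7% and 21.3% against 1.98% and 2.71% after thinning. The median Avd-L cell held 11602 and 16271 UMIs.

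Slc2a1, encoding GLUT1, showed a different order. The highest means were those of basal cells of PI, with 421 and 296 CPM, and of Lp-PI, with 390.5 and 311 CPM, and these overlapped. Lp-NP held 218 CPM in each mouse, C1 of PI held 248 and 174 CPM, and basal cells of G and NP held 159 and 209 CPM and 168.5 and 157 CPM. All 4 alveolar clusters of G and L lay below these: 51.9 and 64.4 CPM in Avd-G, 38.4 and 93.0 in Avd-L, 33.7 and 44.9 in Avp-G, and 37.9 and 82.3 in Avp-L. In Avd-L the 8 milk protein genes (5 caseins and the 3 whey genes) took 44.8% and 41.7% of all UMIs, and on the remaining UMIs Slc2a1 stood at 69.6 and 160 CPM there. That was below the 395.9 and 316 CPM of Lp-PI in both mice, but mouse 2 then overlapped the basal cells of NP and G.

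Among the remaining lactose genes, Ugp2 ranged from 19 to 114 CPM over the 35 sums and was highest in basal cells of L, with 95.6 and 114 CPM, followed in the order of cluster means by Avp-L with 67.5 and 63.5 CPM and Avp-G with 75.0 and 54.9 CPM, which overlapped, while Avd-L held 33.2 and 35.0 CPM. Hk1 was highest in the hormone-sensing cells C3 of PI with 72.3 and 65.1 CPM and lowest in Avd-L with 5.24 and 10.8 CPM, from 3 and 8 UMIs. Hk2 was highest in hormone-sensing cells of NP, with 166 and 207 CPM in C4 and 144 and 172 CPM in C2, and held 43.7 and 36.4 CPM in Avd-L. Outside the epithelium the fibroblast cluster C18 of NP held 845 and 824 CPM of Hk2. Slc35a2 was low throughout, between 0 and 26.1 CPM, with overlapping mice in most neighbouring clusters.

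**Figure D4:**
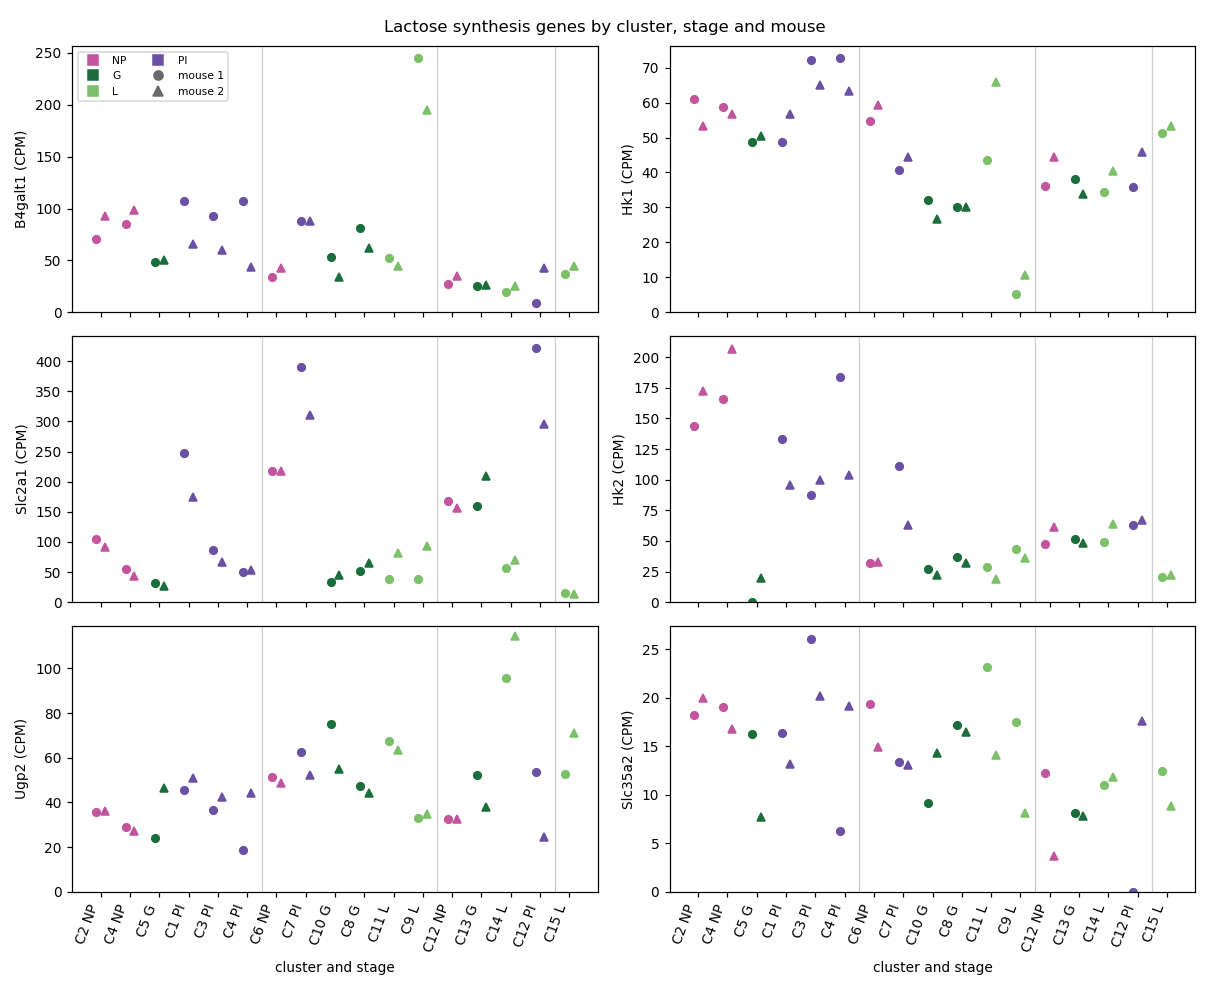
CPM of the 6 lactose synthesis genes in each cluster and stage with 20 or more cells of C1 to C15, 1 point per mouse, circles mouse 1 and triangles mouse 2, coloured by stage, with a linear axis from 0 in each panel. B4galt1 is highest in Avd-L (C9 L) at 245 and 195 CPM, and Hk1 is lowest in C9 L. Slc2a1 is high in C7 PI, C6 NP and basal cells of PI, G and NP. It is low in C8 to C11 and also in basal cells of L (C14 L), at 57.2 and 69.3 CPM.

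Stage comparisons were tested on the mice, 2 against 2, with edgeR's quasi-likelihood test and Benjamini-Hochberg adjustment over all genes tested at 0.05. Log2 fold changes are on edgeR's normalised scale, are given ± SE, and differ from ratios of CPM where milk transcripts fill much of 1 group. Stages were taken from different mice, each in its own library, so stage and library effects cannot be told apart beyond the spread of 2 mice.

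The first comparison asked how differentiated alveolar cells of lactation differed from those of gestation. Of the 9 genes, 6 were higher in Avd-L and 0 were lower (1, Hk1, at an unadjusted p under 0.05), where 18.4% of the 11858 genes tested passed, 9.26% higher and 9.16% lower. DESeq2 called 5 of them in either direction. Their median log2 fold change was 1.14 against -0.16 over all genes. Wap was higher by 9.48 ± 0.72 (adjusted p = 3.5e-06, edgeR), Lalba by 7.78 ± 0.39 (adjusted p = 1.2e-07) and B4galt1 by 2.51 ± 0.20 (adjusted p = 4.9e-06). The hexokinase gene Hk2 was higher by 1.09 ± 0.25 (adjusted p = 0.00917, edgeR), from 52 UMIs in L. Its CPM, 43.7 and 36.4 in L and 37.3 and 32.0 in G, overlapped between the stages, with a ratio of means of 1.135.

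The calls for Glycam1 and Slc2a1 were lost without L mouse 2. Glycam1 was higher by 2.95 ± 0.67 (adjusted p = 0.00967, edgeR), but without that mouse by 0.97 (adjusted p = 0.0974). Slc2a1 was higher by 1.14 ± 0.29 (adjusted p = 0.0181, edgeR), but without that mouse by 0.24 (adjusted p = 0.688), and it did not pass by DESeq2 (adjusted p = 0.0979). For both genes the CPM of the L and G mice overlapped. Ugp2, Slc35a2 and Hk1 had log2 fold changes of 0.47, 0.43 and -0.95 and did not pass the test. In CPM Ugp2 went the other way, with 33.2 and 35.0 in L against 47.5 and 44.2 in G.

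Scaling to UMIs without the milk protein genes moved the median of all genes to -0.36 and the share of calls that were higher from 50.3% to 34.1%. On that scale the log2 fold changes of the 6 genes were 9.28 for Wap, 7.57 for Lalba, 2.70 for Glycam1, 2.32 for B4galt1, 0.93 for Slc2a1 and 0.89 for Hk2, all past the test, and Hk1 passed as lower at -1.15.

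Between alveolar progenitors of lactation and gestation 4 of the 9 genes were higher and 0 lower (0 also at an unadjusted p under 0.05), where 28.9% of 8398 genes passed, 16% higher and 12.8% lower. DESeq2 called 3 in either direction. Wap was higher by 8.01 ± 0.73 (adjusted p = 6.45e-05, edgeR), while against basal cells of L its CPM in Avp-L was 0.748 and 1.74 times as high. Lalba held 2 UMIs in Avp-G and 770 in Avp-L, a ratio of 580 with a 95% counting interval of 160 to 4798 (adjusted p = 1.21e-06, edgeR). Hk1 was higher by 1.18 ± 0.26 (adjusted p = 0.00899, edgeR), from 32.1 and 26.8 CPM to 43.5 and 65.8 CPM. In differentiated cells, by contrast, Avd-L held the lowest Hk1 of all sums of C1 to C15.

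Glycam1 was higher in Avp-L by 1.91 ± 0.60 (adjusted p = 0.0386, edgeR), a call that was lost without L mouse 2, at 0.57, and under milk-free scaling, at 1.70, which moved the share of calls that were higher from 55.5% to 37.7%. DESeq2 did not call it either. B4galt1 at 0.48, Slc2a1 at 0.87, Slc35a2 at 0.97, Ugp2 at 0.33 and Hk2 at 0.29 did not pass. Slc2a1 passed without G mouse 2 (1.09) or L mouse 1 (1.34), and Slc35a2 without L mouse 2 (1.29).

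Luminal progenitors of PI and NP were compared to ask what remained after a cycle of lactation. Of the 8 genes tested, 5 were higher in Lp-PI and 0 lower (1, Hk1, at an unadjusted p under 0.05), where 27.5% of 10744 genes passed, 14.2% higher and 13.3% lower. DESeq2 called 5 in either direction. Glycam1 could not be tested, since neither group held a UMI. Lalba was higher by 3.14 ± 0.40 (adjusted p = 0.00018, edgeR), and Wap rose from 1 UMI to 161, a ratio of 60.0 with a counting interval of 10.6 to 2385 (adjusted p = 0.00016, edgeR). B4galt1 was higher by 1.30 ± 0.15 (adjusted p = 0.000105, edgeR), Hk2 by 1.51 ± 0.24 (adjusted p = 0.000772) and Slc2a1 by 0.77 ± 0.14 (adjusted p = 0.00171). Ugp2 at 0.28, Hk1 at -0.33 and Slc35a2 at -0.30 did not pass.

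Avp-G and Lp-NP were compared to ask how the progenitor of gestation differed from that of the nulliparous gland. Here 1 of 8 tested members was higher and 3 were lower, where 47.5% of 9564 genes passed, 24.3% higher and 23.2% lower. Slc2a1 was lower, with a log2 fold change of -2.47 ± 0.16 (adjusted p = 5.28e-07, edgeR), from 218 CPM in each NP mouse to 33.7 and 44.9 CPM. Hk1 was lower, at -0.97 ± 0.19 (adjusted p = 0.00118, edgeR). Lalba fell from 74 UMIs to 2, 18.8-fold lower with a counting interval of 5.03 to 158 (adjusted p = 0.00218, edgeR). Of the 74, 48 came from NP mouse 2, most of these from a single cell, a spread that the counting interval does not cover. Glycam1 went from 0 UMIs to 136 (adjusted p = 1.48e-05, edgeR), at least 89.2-fold higher against a floor of 3 UMIs over the group, although its CPM in Avp-G was no higher than in basal cells of the same mice. B4galt1 at 0.19, Ugp2 at 0.34, Hk2 at -0.42 and Slc35a2 at -0.54 did not pass, though Ugp2 did without G mouse 2 (0.55), and Wap, with 1 UMI and 6, was too low to be tested.

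The same comparison in basal cells, L against G, shows what passes the test in cells that are not secretory. Of the 9 genes 4 were higher and 1 lower, where 48.2% of 12707 genes passed, 24.1% higher and 24.1% lower. Wap was higher in basal cells of L by 7.12 ± 0.33 (adjusted p = 7.78e-06, edgeR) and Lalba by 2.76 ± 0.58 (adjusted p = 0.00509), while Glycam1 had a log2 fold change of -0.08 (adjusted p = 0.926), which became -1.35 and passed as lower without L mouse 2 (adjusted p = 0.0083). Of the lactose genes, which encode no milk protein, Ugp2 was higher by 1.33 ± 0.18 (adjusted p = 0.000629, edgeR) and Slc2a1 was lower, at -1.43 ± 0.17 (adjusted p = 0.000324). Slc35a2 was higher by 0.63 ± 0.21 (adjusted p = 0.0379, edgeR), but not without G mouse 1, G mouse 2 or L mouse 2, nor by DESeq2. B4galt1 at -0.08, Hk1 at 0.17 and Hk2 at 0.28 did not pass, though Hk2 did without L mouse 1 (0.49).

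**Figure D5:**
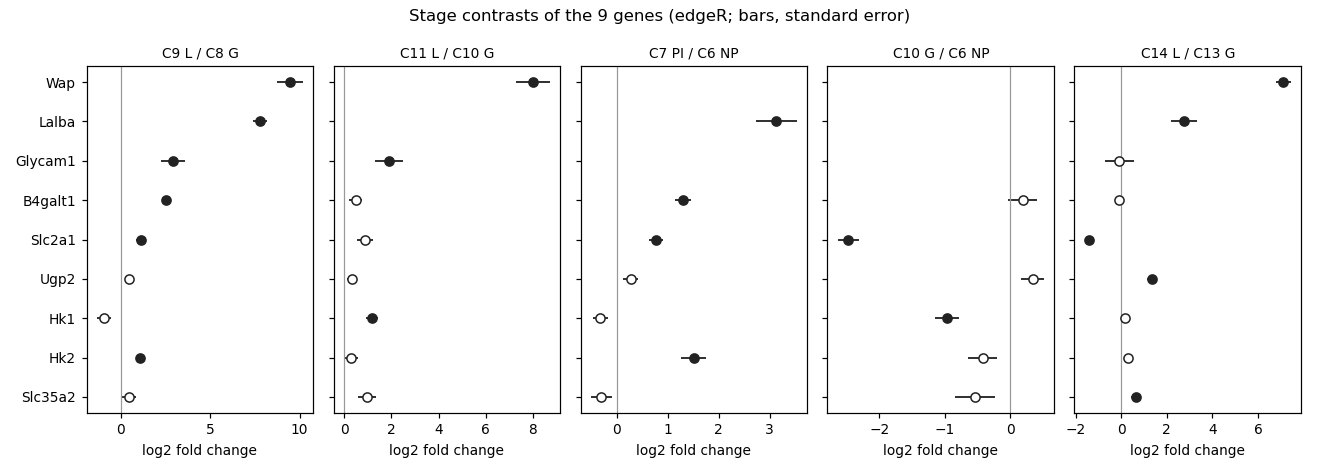
Log2 fold changes of the 9 genes in the 5 stage comparisons with their standard errors (edgeR), filled where the adjusted p passed 0.05 and open where it did not, leaving out genes with 3 or fewer UMIs in 1 group, each panel with its own axis range. Wap and Lalba hold the largest values in Avd-L over Avd-G (C9 L / C8 G), 9.48 and 7.78, while Slc2a1 is lowest in Avp-G over Lp-NP (C10 G / C6 NP) at -2.47.

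Whether the change from G to L was larger in differentiated alveolar cells than in basal cells of the same mice was tested as an interaction in edgeR, with mouse as a term. Of the 9 genes 5 were higher and 2 lower, where 18.6% of 13523 genes passed, 8.30% higher and 10.3% lower. With DESeq2 size factors the share of calls that were higher went from 44.5% to 60.9%. The differences of log2 fold changes were 2.36 ± 0.39 for Wap, 4.93 ± 0.72 for Lalba, 2.63 ± 0.23 for Glycam1, 2.53 ± 0.23 for B4galt1 and 2.44 ± 0.25 for Slc2a1. They were -0.95 ± 0.28 for Ugp2 and -1.21 ± 0.45 for Hk1. The calls of Wap and Lalba were lost without G mouse 1 (adjusted p = 0.15 and 0.4, edgeR), and those of Ugp2 and Hk1 under several alternatives, with adjusted p up to 0.314 and 0.297. The calls of Glycam1, B4galt1 and Slc2a1 passed under every alternative run for this test. Basal counts of the whey genes stand in for free RNA. For these genes this test and the next cannot tell a change of basal cells from a change of free RNA.

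For the change from NP to PI, luminal progenitors against basal cells, 4 of 8 tested members were higher, where 6.96% of 10984 genes passed, 4.12% higher and 2.84% lower. Milk-free scaling moved the share of calls that were higher from 59.2% to 38.3% and left 2 of the 4. These were Wap (adjusted p = 0.00492, edgeR) and Lalba (adjusted p = 0.0379), whose basal cells of PI held no UMI, B4galt1 at 1.34 ± 0.43 (adjusted p = 0.039) and Hk2 at 1.15 ± 0.33 (adjusted p = 0.02). DESeq2 gave an adjusted p for 7 of the 8 members and called 0, with 3 at an unadjusted p under 0.05, and its adjusted p for Wap was not given. Wap lost its call without NP mouse 2 (adjusted p = 0.409, edgeR) or PI mouse 2, Lalba without NP mouse 1, PI mouse 1 or PI mouse 2, and B4galt1 and Hk2 without NP mouse 1, NP mouse 2 or PI mouse 1.

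Other genes of the pathway were followed as lists, whose counts stand against the shares of all genes that were higher: 9.26% in Avd-L, 16% in Avp-L and 14.2% in Lp-PI. The 5 caseins were all higher in Avd-L than in Avd-G and in Lp-PI than in Lp-NP, with median log2 fold changes of 3.03 and 7.93. Of 11 other whey protein genes tested in Avd-L, 10 were higher and 1 was lower, led by Spp1 (osteopontin) at 8.92, Ltf (lactoferrin) at 7.84, Lao1 at 7.81 and Lcn2 at 4.20. In Lp-PI 9 of 10 were higher, led by Spp1 at 7.83, Pigr, the carrier of secretory antibodies, at 4.43, and Trf (transferrin) at 3.20. In basal cells of L, Lao1, Ltf and Spp1 were higher too, at 8.37, 6.46 and 3.98. Lao1 held 0 CPM in basal cells of both G mice, and 3.08 and 3.97 CPM in those of L. Ltf held 1 and 0 CPM in G, and 40.75 and 39.35 CPM in L. The sizes of the changes of Lao1 and Ltf thus rest on counts at or near 0 in G. The part of free RNA in these basal levels was not tested.

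Of 11 other genes of the B4galt galactosyltransferase and Slc35 carrier families 1 was higher in Avd-L, a share near that of all genes. This was Slc35b1 at 0.95. None of the other tested members of this list had a log2 fold change above 1.05, against 2.51 for B4galt1. Of 14 glycolysis genes 5 were higher and 0 lower, led by Aldoc at 1.93 and Pkm at 1.32. Among 14 regulators Elf5, an alveolar transcription factor, was higher at 0.95, and Ehf and Nfib were lower, at -1.42 and -0.69.

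In alveolar progenitors, of 12 glycolysis genes tested, 10 were higher in Avp-L than in Avp-G, with a median log2 fold change of 1.48 against -0.03 over all genes, led by Aldoa at 2.91, Ldha at 2.28 and Pfkp at 2.26, while Ldhb was lower at -1.84. Among genes of glucose uptake Slc2a4, the insulin-responsive glucose transporter GLUT4, was higher at 3.76 and Slc2a8 at 2.19. Slc2a4 held 0 and 1.87 CPM in Avp-G and 14.8 and 9.41 CPM in Avp-L but 71.6 and 69.2 CPM in basal cells of L, and the basal markers given above were also higher in Avp-L. Their part in this change was not tested. In basal cells of L Slc2a4 was higher at 1.21 (adjusted p = 0.000276, edgeR) and Ldha was lower at -1.17. Of the 5 caseins all were higher in Avp-L, and 10 of 11 other whey genes were.

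Genes with patterns most like those of the members were ranked by Pearson's r of log2(CPM + 1) over the 35 sums of C1 to C15, among 9759 genes. Sums of 1 library share their free RNA, and r is descriptive. Wap was closest to Csn1s2b (r = 0.938), Fabp3 (0.897) and Lao1 (0.884). Lalba was closest to Chrdl2 (0.914), Spp1 (0.903) and Saa1 (0.879), and Glycam1 to Thrsp (0.954), Fabp3 (0.949) and 1700012B07Rik (0.872). B4galt1 was closest to Slc7a4 (0.767), Sdcbp2 (0.753) and AU040320 (0.751), and Slc2a1 to Nrip1 (0.865), Clcf1 (0.86) and Fosl1 (0.839). Among the members r was 0.796 between Wap and Lalba, 0.529 between Lalba and Glycam1, 0.482 between Lalba and B4galt1, and -0.706 between Wap and Hk1.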

How the data were processed

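Single-cell RNA libraries of sorted mammary epithelial cells were analysed from 8 mice, 2 at each of 4 stages. Per the labels and the methods of the study, the authors made the deposited UMI counts per gene and cell with Cell Ranger (STAR, mm10, version not given in the sources used here), dropped cells of low depth, few genes, over the mitochondrial limit or with a barcode found in several libraries, and clustered the rest. The deposited counts were not normalised. The authors' cluster and quality columns were used as given; 25009 of 25806 barcodes passed, and 1 annotated cell had no barcode in the matrix. The authors set aside cluster C20 as doublets. Its cells are among the 25009 that passed but in none of the sums used here, and no doublet caller was run.

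Each mouse gave 1 UMI sum for each cluster in which it had at least 20 cells, 51 sums in all, of which 35 were from C1 to C15. Levels were computed as CPM, as CPM of UMIs without the 8 milk protein genes, as UMIs per cell, and as the share of cells with a UMI, also after thinning each cell to 1000 UMIs (0 cells were shallower). Free-RNA levels were those of basal cells of the same library. Counting intervals are exact at 95% and, with the floor of 3 UMIs, cover counting error only.

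Stage comparisons used edgeR 4.0.16 (R 4.3.3) quasi-likelihood tests with TMM normalisation, filterByExpr (minimum count 10, total 15) and Benjamini-Hochberg adjustment at 0.05. DESeq2 1.42.0 was an alternative, as were other size factors, no filter, milk-free scaling, glmTreat (log2 fold change over 1 at 0.01), a replicate block, 1 fit over all sums, subtraction of basal UMIs, an equal number of cells, and each mouse left out in turn. The fits were tested on simulated data. All 9 members were named in each comparison, up to 4 genes per list with the largest change among those that passed, and the 3 genes most like each of 5 members (at least 20 CPM in 1 sum). The members and lists were chosen with earlier results of these data known. Gene coordinates came from GENCODE M21 and promoters from RefSeq, which matched 9 of 9 members. Results on one gene of the pathway lists are not reported here.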

Additional observations from a re-analysis of the deposited data

Results flagged for a closer look

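For 7 of the 9 genes the change from G to L differed between differentiated alveolar cells and basal cells of the same mice (edgeR interaction term, Benjamini-Hochberg adjustment over all genes tested). It was larger in alveolar cells for Wap (adjusted p = 5.33e-08), Lalba (1.87e-09), Glycam1 (4.27e-26), B4galt1 (1.27e-25) and Slc2a1 (8.21e-20), and smaller for Ugp2 (0.00623) and Hk1 (0.0415). For Wap, Lalba and Glycam1 the basal counts stand in for free RNA. There the term cannot tell a change of basal cells from a change of free RNA. In basal cells themselves Wap and Lalba were also higher in L, by the values given with the basal comparison above. Slc2a1 and Ugp2 changed there too, Slc2a1 at -1.43 and Ugp2 at 1.33 on the log2 scale. Each mouse gave both cell types, and the fit held 2 residual degrees of freedom per gene with a prior of 1270, so the spread was shared almost wholly over genes. Without G mouse 1 Wap and Lalba lost their calls (adjusted p = 0.15 and 0.4, edgeR), those of Ugp2 and Hk1 were lost under several alternatives (up to 0.314 and 0.297), and leaving out 1 mouse left 3 to 6 members called.

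For 4 genes the change from NP to PI was larger in luminal progenitors than in basal cells of the same mice: Wap (adjusted p = 0.00492, edgeR interaction term), Lalba (0.0379), B4galt1 (0.039) and Hk2 (0.02). DESeq2 called 0 of them, with 3 members at an unadjusted p under 0.05, milk-free scaling left 2 and DESeq2 size factors in edgeR left 1, and each of the 4 was lost without at least 1 of the mice. The PI basal sums came from 27 and 53 cells, and those of mouse 1 held 852 CPM of Cd74 with Ptprc and Cd72 at 0, whose part in these differences was not tested.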

How the results depend on the processing

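The depth of single cells, 2 mice a stage, 42 and 47 Avd-L cells and 27 and 53 basal cells of PI limit these comparisons, and shares of cells with a UMI move with depth. Where calls were lost or a value moved, the cause was not tested, except that glmTreat requires a log2 fold change over 1 at 0.01 and leaving out mice or cells lowers the number compared. In the order Avd-L over Avd-G, Avp-L over Avp-G, Lp-PI over Lp-NP, Avp-G over Lp-NP and L over G basal cells, edgeR called 2184, 2423, 2955, 4542 and 6131 genes, and glmTreat 325, 390, 252, 759 and 743 genes, with 3, 2, 2, 2 and 1 of the 9 members. The DESeq2 Wald test called 1211 genes for Avp-L, 1615 for Lp-PI, 2711 for Avp-G, and 1306 and 185 for the alveolar and the luminal interaction, where edgeR called 2521 and 764. An equal number of cells left 1203 genes for Avd-L. Of the 4 members called in the luminal interaction, 1 was left with DESeq2 size factors, 0 by DESeq2 (3 at an unadjusted p under 0.05) and 2 with milk-free scaling.

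Leaving out 1 mouse at a time gave 901 to 1882 genes and 4 to 6 members for Avd-L, 1727 to 2576 genes for Lp-PI, 919 to 1924 genes and 3 to 6 members for the alveolar interaction, and 191 to 771 genes and 1 to 2 members for the luminal one. Genes not past the test changed sign: Slc35a2 (-0.13 to 0.88) in Avd-L, Hk2 (-0.0897 to 0.57) in Avp-L, B4galt1 (-0.14 to 0.48) in Avp-G over Lp-NP, Glycam1 (-1.35 to 0.95) and B4galt1 (-0.26 to 0.13) in basal cells, Slc35a2 (-0.89 to 0.22) in the alveolar interaction, and Ugp2 (-0.0822 to 0.66), Hk1 (-0.35 to 0.0012) and Slc35a2 (-1.67 to 7.44) in the luminal one.

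As log2 over basal cells (mean of 2 mice), the CPM values were 8.09, 0.19 and 6.38 for Wap in C9, C11 and C8. For Lalba they were 8.59, 5.85 and 2.60 in C9, C11 and C7 (in C7 a lower bound, against a floor of 3 UMIs). Lalba in C8 stood at 4.99, and per cell at 5.78, with 1 basal UMI in G mouse 2. For Glycam1 the CPM values were 8.09, 1.47, 6.20 and -0.22 in C9, C11, C8 and C10. Per cell they were 9.66, 0.98 and 7.17 for Wap in C9, C11 and C8, 10.16, 6.64 and 3.38 for Lalba in C9, C11 and C7, and 9.66, 2.26, 6.99 and 0.66 for Glycam1 in C9, C11, C8 and C10, the last with its direction turned. Milk-free CPM gave 8.90, 9.41 and 8.91 for Wap, Lalba and Glycam1 in C9. Against non-epithelial cells Wap stood at 9.10 and 1.2 in C9 and C11, Lalba at 8.89 in C9, and Glycam1 at 8.76, 2.14 and 0.055 in C9, C11 and C10, the last again turned. Without the richest cell, an alternative chosen after seeing the data, Wap fell to 7.92 in C9 and -0.51 in C11, Lalba to 8.53 in C9 and Glycam1 to 0.31 in C11. A minimum of 50 cells gave no value for C9 or for C7 over basal cells.

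Same-numbered mice of different stages were different animals, and their deviations from the stage means correlated at -0.041 to 0.066 over genes, so the numbers were not taken as pairs. With the replicate block edgeR called 2214 genes in Avd-L, Slc2a1 passed in Avp-L (adjusted p = 0.0144), Slc35a2 did not pass in basal cells (adjusted p = 0.0507), and no other call of a member changed. Over all settings but those leaving out a mouse, values of single genes kept their direction and side of the threshold in 372 cases, lost a call in 32 and gained one in 5. Counts of calls and levels over basal cells were less stable in these settings. Of them 102 stayed the same, 19 counts fell, 19 levels moved and 3 turned direction.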
